A study of Mus musculus with 6 samples.

Results

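The 10 genes described here encode the contractile machinery of smooth muscle and markers of pericytes, the mural cells that wrap vessels. Acta2, Actg2, Myh11, Tagln, Cnn1, Lmod1, Mylk and Des make up the contractile and filament group, and Rgs5 and Cspg4 the pericyte group. They were taken by name from the 56941 gene IDs of a table of raw read counts, with earlier results of these data known, and each matched 1 ID by its symbol. All 10 were among the 17072 genes that passed a filter on low counts, Tagln at 7 to 31 counts per library. The 3 hyperoxia libraries came from mouse pups kept in 75% oxygen from postnatal day 0, and the 3 room air libraries from pups kept in 21% oxygen. Lungs of either group were taken on postnatal day 7, and magnetic beads were used to select cells with CD31 on their surface, the product of the endothelial gene Pecam1. The labels give no strain, genotype or sex and do not say that each library was its own animal, and the spread behind the p-values is that of these libraries and may be technical. The comparison asked how hyperoxia, a model of oxygen injury to the newborn lung, changed transcripts of the selected cells.

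Smooth muscle contracts when myosin light chain kinase phosphorylates the light chain of smooth muscle myosin, which then pulls on filaments of smooth muscle actin. Pericytes and smooth muscle cells are not endothelial, and their transcripts in a CD31 selection can come from cells carried along on the column or still attached to vessels. In the newborn lung, alveolar myofibroblasts also make Acta2 and Tagln while septa form. In bulk RNA, fewer cells of a type and less RNA per cell cannot be told apart.

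Total counts ran from 39379793 to 42343192 per library, and levels are given in CPM, counts relative to the library total after TMM scaling. Pecam1 averaged 2341 ± 369 CPM in hyperoxia and 2783 ± 450 CPM in room air (SD, n = 3 each). Pdgfrb, a receptor gene among the pericyte markers, averaged 48.8 ± 12.3 and 45.7 ± 3.79 CPM (SD, n = 3 each). The summed level of 14 pan-endothelial markers was 16606, 12131 and 15540 CPM in hyperoxia libraries 1, 2 and 3, and 19878, 19260 and 14457 CPM in room air libraries 1, 2 and 3. Hyperoxia 2 and room air 3 were thus the libraries with the least endothelial RNA of their groups. The summed level of 9 alveolar type 1 markers was 5971 to 7738 CPM in hyperoxia and 2385 to 3369 CPM in room air, the highest values again being in hyperoxia 2 and room air 3. Reads of Y-linked genes were counted 6263 times in hyperoxia 2 and 5433 to 6361 times in the room air libraries, but at most 2 times in hyperoxia 1 and 3.

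Of the 10 genes, 1 rose in hyperoxia, 0 fell and 9 did not pass the test, edgeR's quasi-likelihood test with Benjamini-Hochberg adjustment over all genes. Across all genes tested, 11.2% were called at an adjusted p below 0.05, 6.77% higher and 4.41% lower. The gene that rose was Rgs5, a regulator of G protein signalling and a marker of pericytes. At an unadjusted p below 0.05, edgeR, DESeq2 and limma-voom each counted 1 gene higher and 0 lower. Over all 17072 genes edgeR counted 2305 higher and 1993 lower at that threshold. The median log2 fold change of the 10 genes was 0.37, beside -0.01 over all genes tested. Of the 10 values 9 were above 0, beside 8369 of all 17072. The 10 genes share the same libraries, so their signs are not independent. The median of the 10 genes was -0.01 without hyperoxia 2. In a model with a term for the presence of Y-linked reads it was 0.87, but there hyperoxia 2 alone stands for hyperoxia against room air, so that fit has an arm of 1 library and is given as a value, not as support for a call.

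Rgs5 (ENSMUSG00000026678) stood at 139, 166 and 142 CPM in hyperoxia libraries 1, 2 and 3, and at 92.1, 49.1 and 65.3 CPM in room air libraries 1, 2 and 3. Every hyperoxia library was above every room air library, and the spread was wider in room air. Groups did not overlap at 1 of the 10 genes, this one, against 30.9% of all genes tested. The means were 149 ± 14.9 CPM in hyperoxia and 68.8 ± 21.7 CPM in room air, a log2 fold change of 1.11 (SE 0.19, 95% limits 0.69 to 1.54, adjusted p = 0.00461 by edgeR, n = 3 each), which is a fold of 2.17. The rise was called without each single library in turn, with log2 fold changes of 0.92 to 1.37 and adjusted p of 0.00209 to 0.0174. It was not called when hyperoxia 2 and room air 3 were left out together (log2 fold change 0.98, adjusted p = 0.107). In the same libraries the alveolar type 1 markers were higher in hyperoxia (9 of 9 called), and their part in the result was not tested.

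Cspg4 (ENSMUSG00000032911), the NG2 proteoglycan of the pericyte surface, was at 7.78, 12.5 and 15.7 CPM in hyperoxia and at 6.70, 8.60 and 9.63 CPM in room air. The groups overlapped at the lowest hyperoxia library. The log2 fold change was 0.53 (SE 0.26, 95% limits -0.04 to 1.09, adjusted p = 0.234 by edgeR), so a fold of up to 2.13 lay within the limits.

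**Figure D1:**
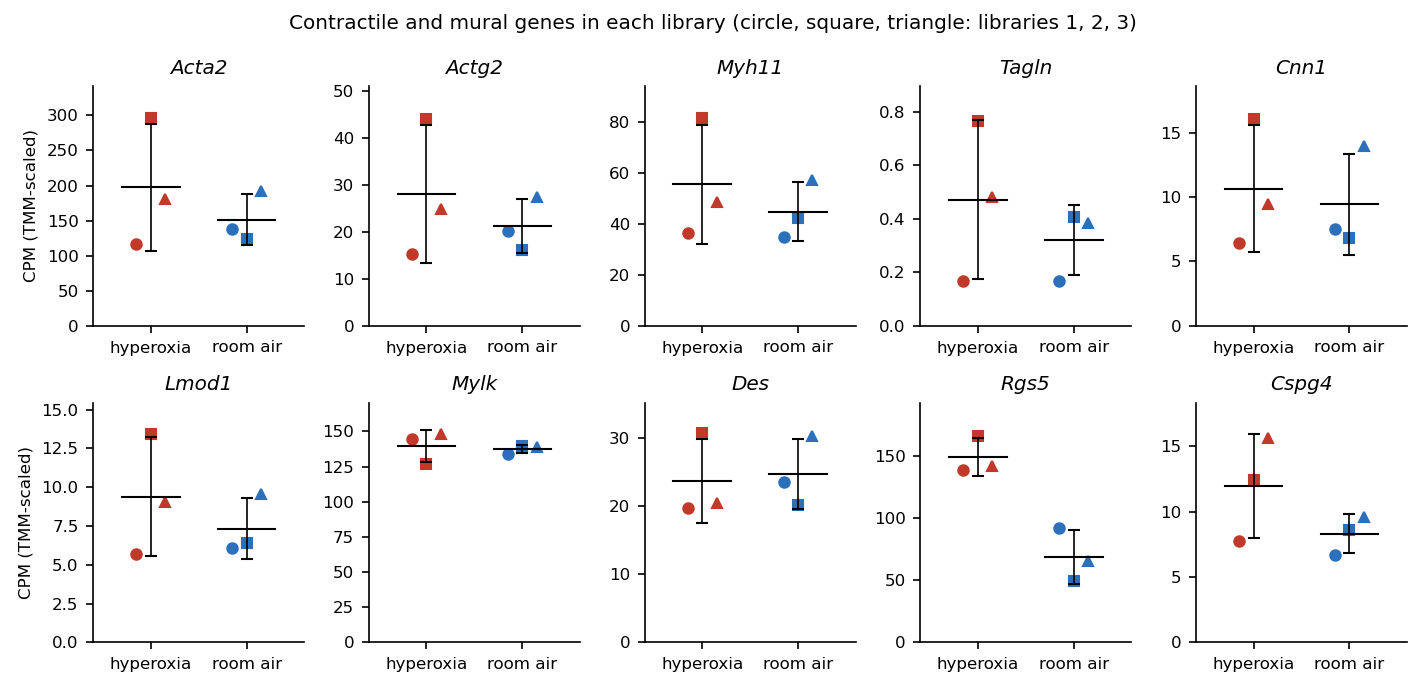
CPM (TMM-scaled, linear axes from 0) of the 10 genes, with hyperoxia (red) left of room air (blue); circles, squares and triangles are libraries 1, 2 and 3, and bars give the mean and SD of 3 libraries. Rgs5 is the gene whose groups do not overlap, and hyperoxia 2 is the highest hyperoxia library for 8 of the 10 genes.

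Of 18 other pericyte markers tested, 0 rose, 1 fell and 17 did not pass by edgeR, with a median log2 fold change of 0.10. With 6.77% of all genes called higher and 4.41% lower, these counts are near the background. The limits of single markers leave room for a rise, as for Trpc6, a cation channel, at 0.42 on the log2 scale with 95% limits of -0.19 to 1.04 (adjusted p = 0.390 by edgeR). At an unadjusted p below 0.05 there were 0 higher and 1 lower by edgeR, beside 2305 and 1993 of all 17072 genes. By adjusted p, DESeq2 and limma-voom each called 0 higher and 1 lower. Pdgfrb was at 38.4, 62.5 and 45.6 CPM in hyperoxia and at 41.4, 47.4 and 48.4 CPM in room air. Its groups overlapped (log2 fold change 0.10, SE 0.17, adjusted p = 0.769 by edgeR). Notch3, a Notch receptor of mural cells, was at 33.3, 51.9 and 40.04 CPM in hyperoxia and at 32.4, 42.5 and 38.8 CPM in room air. Its log2 fold change was 0.14 (SE 0.17, adjusted p = 0.657 by edgeR). The gene that fell was Lamc3, a laminin chain of basement membranes, at 11.99, 9.07 and 11.1 CPM in hyperoxia, against 18.8, 19.9 and 13.8 CPM in room air (log2 fold change -0.70, SE 0.19, adjusted p = 0.0355 by edgeR). Its call was lost without hyperoxia 1 (adjusted p = 0.0535), hyperoxia 2 (0.0883), hyperoxia 3 (0.0872), room air 1 (0.103) or room air 2 (0.141), and when libraries were scaled by the pan-endothelial markers (0.257). The potassium channel subunit genes Kcnj8 and Abcc9 and Higd1b, markers that are restrictive for pericytes, stood at 1.02 to 7.07 CPM in hyperoxia and 1.28 to 4.97 CPM in room air. Mcam, a marker of the list that endothelial cells express too, was at 1092 ± 116 CPM in hyperoxia and 1048 ± 141 CPM in room air.

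The ratio of Rgs5 CPM to Pdgfrb CPM in the same library was 3.61, 2.66 and 3.11 in hyperoxia 1, 2 and 3, and 2.23, 1.03 and 1.35 in room air 1, 2 and 3. Such ratios take no account of gene length and were set side by side only between libraries. With Notch3 as the denominator the ratios were 4.17, 3.203 and 3.55 in hyperoxia and 2.84, 1.15 and 1.68 in room air. Neither of these 2 ratios overlapped between the groups, but Rgs5 alone did not overlap either, so they add no separate support for its rise. With Acta2 as the denominator the groups did overlap, at 1.19, 0.562 and 0.787 in hyperoxia and 0.666, 0.396 and 0.339 in room air. All these ratios were chosen after their values were seen and were not tested.

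The smooth muscle actin genes are Acta2, which encodes the actin of vascular smooth muscle, and Actg2, which encodes the actin of visceral smooth muscle. Their proteins are nearly alike, so whether reads could be assigned to one or the other was looked at first. In the GENCODE M21 transcripts, 0 of 2146 windows of 50 bases of Acta2 occurred in Actg2, and 7 occurred in any other gene. The coding sequences were 84.2% identical over an alignment of 1131 bases. A stretch of 60 coding bases close to the stop codon, without the last codon before it, shows how closely the genes resemble each other. It is printed with the 11 bases that differ in capitals (transcripts Acta2-201 on chromosome 19 and Actg2-201 on chromosome 6, coding strand).
Acta2: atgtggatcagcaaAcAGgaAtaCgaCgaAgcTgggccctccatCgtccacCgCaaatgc
Actg2: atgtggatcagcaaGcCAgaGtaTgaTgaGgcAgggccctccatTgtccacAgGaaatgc

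Acta2 (ENSMUSG00000035783) was at 117, 296 and 180.5 CPM in hyperoxia 1, 2 and 3, and at 138, 124 and 193 CPM in room air 1, 2 and 3. Hyperoxia held the lowest library as well as the highest. The log2 fold change was 0.38 (SE 0.29, 95% limits -0.26 to 1.02, adjusted p = 0.457 by edgeR). Without hyperoxia 2 it was -0.025 (adjusted p = 0.965). With the term for Y-linked reads, where hyperoxia 2 is the 1 hyperoxia library set against room air, it was 0.96 (adjusted p = 0.0348). Actg2 (ENSMUSG00000059430) was at 15.4, 44.1 and 24.8 CPM in hyperoxia and at 20.2, 16.1 and 27.5 CPM in room air. Its log2 fold change was 0.40 (SE 0.33, adjusted p = 0.498 by edgeR), with -0.079 without hyperoxia 2 and 1.05 with the Y-linked term (adjusted p = 0.0373). The order of the 3 libraries within each group was the same for both actins.

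Within a library, the Actg2 CPM came to 13.1%, 14.9% and 13.8% of the Acta2 CPM, not corrected for length, in hyperoxia and 14.6%, 13.02% and 14.3% in room air. This share moved far less than either gene, since Acta2 itself differed 2.53-fold among the hyperoxia libraries. Cnn1 likewise held 5.49%, 5.44% and 5.25% of the Acta2 CPM in hyperoxia, and 5.46%, 5.50% and 7.23% in room air.

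**Figure D2:**
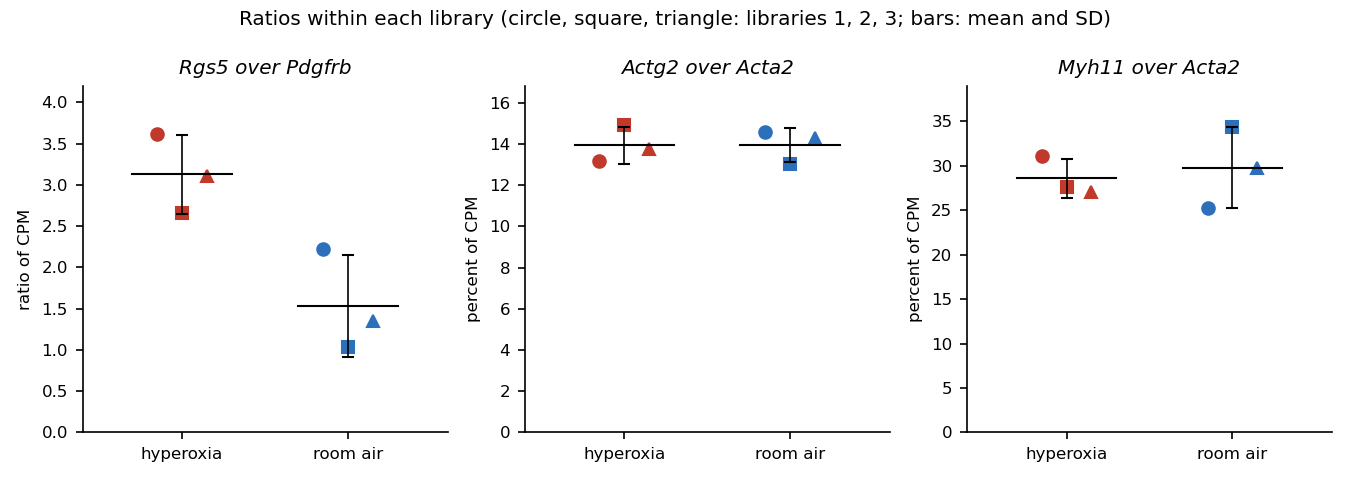
Ratios of CPM within each library on linear axes from 0, hyperoxia (red) left of room air (blue); markers are libraries 1, 2 and 3, and bars the mean and SD of 3. Rgs5 over Pdgfrb is 2.66 to 3.61 in hyperoxia and 1.03 to 2.23 in room air, whereas Actg2 stays between 13.02% and 14.9% of Acta2 in all 6 libraries.

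Serum response factor, with its partner myocardin, drives many contractile genes through CArG boxes near their start sites. Promoters of 7 of the 10 genes were in the RefSeq table (build GRCm38.p6). The 250 bases upstream of the start were searched for the CArG box, which reads the same on either strand, with 1 mismatch allowed in its central A and T bases. Acta2 had 2 matches, starting 84 and 34 bases upstream, and none was exact. No match was found in the windows of Cnn1, Des, Lmod1, Rgs5, Cspg4 and Mylk. Of 32851 promoters searched, 8.59% held a match of this kind and 1.47% an exact one. The 120 bases before the start are shown for Acta2, with the matches in capitals, and for Rgs5, the gene that rose, at chr19:34255374-34255493 (minus strand) and chr1:169655381-169655500 (plus strand).
Acta2: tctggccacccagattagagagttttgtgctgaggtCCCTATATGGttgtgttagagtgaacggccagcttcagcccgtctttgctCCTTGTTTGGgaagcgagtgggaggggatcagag
Rgs5: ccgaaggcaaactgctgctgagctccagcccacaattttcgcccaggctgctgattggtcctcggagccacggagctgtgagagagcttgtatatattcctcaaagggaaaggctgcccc

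Myh11 (ENSMUSG00000018830), the smooth muscle myosin heavy chain and the most restrictive marker of that cell type among the 10, was at 36.4, 81.7 and 48.9 CPM in hyperoxia and at 34.9, 42.5 and 57.4 CPM in room air. The groups overlapped (log2 fold change 0.31, SE 0.27, 95% limits -0.29 to 0.91, adjusted p = 0.532 by edgeR). Without hyperoxia 2 the value was -0.074, and with the Y-linked term, again hyperoxia 2 alone, it was 0.86 (adjusted p = 0.0387). Mylk (ENSMUSG00000022836) encodes myosin light chain kinase, in a short form of smooth muscle and a long form that endothelial cells use, which counts per gene do not separate. Mylk was at 144, 127 and 148 CPM in hyperoxia and at 134, 139 and 139 CPM in room air. Hyperoxia 2 was its lowest library. The log2 fold change was 0.02 (SE 0.10, adjusted p = 0.915 by edgeR), and its 95% limits of -0.21 to 0.26, folds of 0.867 to 1.19, were the narrowest of the 10 genes.

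Tagln, Cnn1 and Lmod1 encode proteins that bind the actin filament. Transgelin (Tagln) cross-links it, calponin (Cnn1) restrains myosin on it, and leiomodin (Lmod1) starts new filaments. Cnn1 (ENSMUSG00000001349) was at 6.42, 16.1 and 9.47 CPM in hyperoxia and at 7.55, 6.81 and 13.9 CPM in room air. Lmod1 (ENSMUSG00000048096) was at 5.72, 13.4 and 9.06 CPM in hyperoxia and at 6.05, 6.38 and 9.58 CPM in room air. Hyperoxia 2 and room air 3 were the highest libraries of their groups for either gene. The log2 fold change of Cnn1 was 0.18 (SE 0.35, adjusted p = 0.803 by edgeR), with -0.25 without hyperoxia 2, and that of Lmod1 was 0.36 (SE 0.30, adjusted p = 0.517), with 0.012 at the lowest when 1 library was left out.

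Tagln (ENSMUSG00000032085), usually among the most abundant transcripts of smooth muscle, was barely counted. Its counts were 7, 31 and 19 in hyperoxia and 7, 16 and 16 in room air, or 0.170, 0.766 and 0.482 CPM and 0.169, 0.408 and 0.386 CPM. In the GENCODE M21 annotation, 67.9% of its exonic bases overlapped exons of other genes, 62.4% those of Gm48529 on the opposite strand. For the other 9 genes the overlap was at most 6.85%. The strand setting of the counting is not given in the sources used here, so the Tagln count is uncertain, and the part of the overlap in it was not tested. Gm48529 itself was at 1.33, 0.445 and 1.35 CPM in hyperoxia and at 0.653, 1.38 and 1.01 CPM in room air. The log2 fold change of Tagln was 0.55 with 95% limits of -1.12 to 2.23 (adjusted p = 0.703 by edgeR), the widest of the 10 genes.

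Des (ENSMUSG00000026208), the muscle intermediate filament protein desmin, which pericytes make as well, was at 19.8, 30.8 and 20.5 CPM in hyperoxia and at 23.6, 20.2 and 30.3 CPM in room air. The group ranges lay almost on top of each other (log2 fold change -0.06, SE 0.20, 95% limits -0.50 to 0.38, adjusted p = 0.889 by edgeR). Des is also made by heart and skeletal muscle. The summed level of 12 cardiac markers was 42.8 to 70.1 CPM in hyperoxia and 50.4 to 75.9 CPM in room air, much of it from Actc1 and Myh7, which overlapped between the groups. Of 10 cardiac markers tested, 0 rose, 1 was called lower and 5 had hyperoxia wholly below room air. The median log2 fold change of the 10 was -1.07. Among all 17072 genes tested, 4.41% were called lower and 2460 had hyperoxia wholly below room air. The 5 were Myh6, Tnni3, Myl7, Actn2 and Mybpc3, and none would have passed the filter on low counts by its hyperoxia libraries alone. The filter thus favoured lower values in hyperoxia for them, so their count, the call and the median are no support for a fall. The called one was Myl7, an atrial light chain, at 0.181 ± 0.142 CPM in hyperoxia and 2.25 ± 1.84 CPM in room air (adjusted p = 0.0121 by edgeR, but 0.0846 without room air 1). The summed level of 8 skeletal muscle markers was 1.98 to 2.93 CPM in hyperoxia and 4.62 to 6.90 CPM in room air, with 1 of 5 tested called lower. That gene was Acta1, skeletal actin, at 0.106 ± 0.142 CPM in hyperoxia and 1.39 ± 0.569 CPM in room air (adjusted p = 0.0313 by edgeR). Acta1 would not have passed the filter by its hyperoxia libraries alone either, so its call is no support for a fall. Its call was lost without hyperoxia 3 (0.0994), room air 1 (0.0854), room air 2 (0.0664) or room air 3 (0.0949). Nppa, Ckm and Myh8 did not pass the filter and were at 0 in all 3 hyperoxia libraries. In room air 1, 2 and 3 they were near the floor as well. Nppa was at 0.532, 0 and 0 CPM, Ckm at 0.871, 0.255 and 0.145 CPM, and Myh8 at 0.194, 0.0510 and 0.193 CPM. Pln and Myh3 did not pass either, and both had reads in each group. The part of heart and skeletal muscle RNA in the Des level was not tested.

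**Figure D3:**
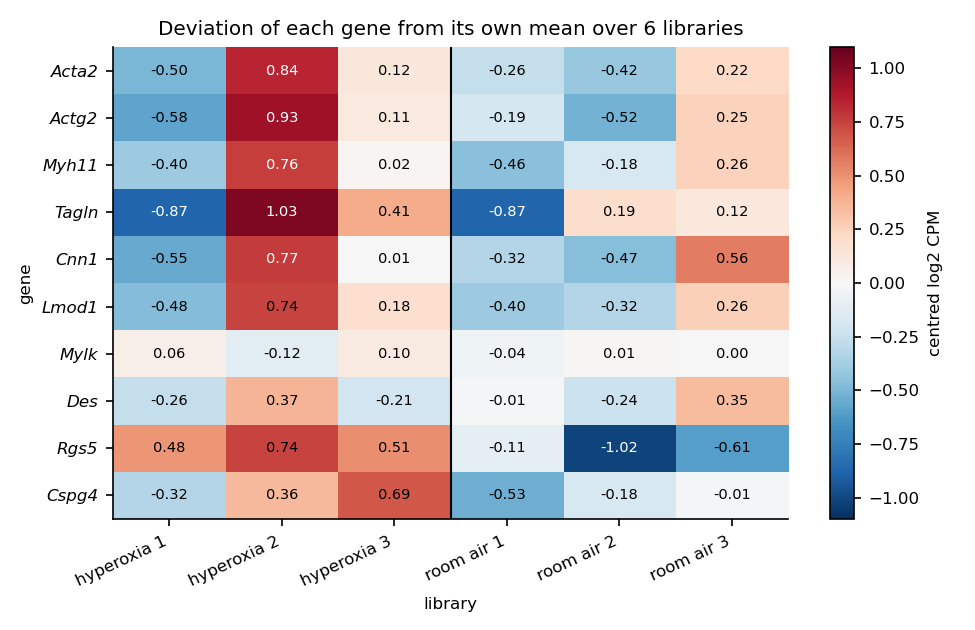
Log2 CPM (prior count 2) of the 10 genes, each centred on its own mean over the 6 libraries, with hyperoxia libraries left of the line and room air libraries right of it; red is above and blue below the mean. Hyperoxia 2 is the reddest column for the contractile genes, Mylk is nearly white, and Rgs5 is red in all 3 hyperoxia libraries and blue in all 3 room air libraries.

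For each of the 8 contractile and filament genes, the ratio of the highest to the lowest hyperoxia library, 1.17 for Mylk to 4.52 for Tagln, was larger than the fold between the groups. For 8 of the 10 genes hyperoxia 2 was the highest hyperoxia library, the others being Cspg4 and Mylk, and for 7 of 10 room air 3 was the highest room air library. Among all genes tested, hyperoxia 2 was highest for 39.9% and room air 3 for 35.7%. Both held for 6 of the 10 genes and for 19.7% of all genes. Of the 18 pericyte markers, hyperoxia 2 was highest for 13, room air 3 for 10 and both for 8 (44.4%). The 10 genes and these markers share the same 6 libraries and are not independent counts of the pattern. The excess of hyperoxia 2 over the mean of hyperoxia 1 and 3 was 1.53-fold for Des, 1.81-fold for Lmod1, 1.92-fold for Myh11, 1.99-fold for Acta2, 2.02-fold for Cnn1 and 2.19-fold for Actg2, and it was 1.18-fold for Rgs5. For the 9 genes with a mean of at least 5 CPM, the median ratio of the highest to the lowest library was 2.25 in hyperoxia and 1.58 in room air, beside 1.21 and 1.25 over all 11273 tested genes at that level. The summed level of 12 fibroblast markers was also highest in hyperoxia 2 and room air 3. It was 945, 1269.8 and 843 CPM in hyperoxia 1, 2 and 3, and 952, 819.7 and 1133 CPM in room air 1, 2 and 3. Most of it came from Col1a1, Col1a2 and Col3a1, and other markers, among them Mfap4 and Col14a1, were highest in hyperoxia 1. The summed level of 12 myofibroblast markers, mostly Eln, was instead highest in hyperoxia 1 (11310.5 CPM) and room air 1 (11508 CPM). Hyperoxia 2 was also the hyperoxia library with Y-linked reads and with the least endothelial RNA, and the part of these in the result was not tested.

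The tested genes with the profile nearest to the mean of the 10 were sought among 10836 other genes with a symbol and a mean of at least 5 CPM, by the root mean square difference of centred log2 CPM over the 6 libraries. They were Arhgef10l (0.0744), Eps8 (0.0967), Scd1 (0.102), Ppp1r12b (0.109) and Macrod1 (0.111). None of these 5 genes was called between the groups, with edgeR adjusted p of 0.234 to 0.359. Of the 10 genes themselves, Lmod1 was nearest to the mean profile (0.0908) and Rgs5 farthest (0.562).

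The order of levels among the 10 genes was taken per kilobase of exon, with exon lengths from GENCODE M21. In hyperoxia Acta2 led with 90.1 ± 41.3 CPM per kb, followed by Rgs5 (32.8 ± 3.28), Actg2 (18.1 ± 9.40), Mylk (12.4 ± 1.00), Myh11 (7.32 ± 3.08), Des (6.31 ± 1.64), Cnn1 (3.90 ± 1.81), Lmod1 (2.38 ± 0.975), Cspg4 (1.00 ± 0.332) and Tagln (0.238 ± 0.150), each as mean ± SD of 3 libraries. In room air Acta2 led with 69.0 ± 16.5 CPM per kb, followed by Rgs5 (15.1 ± 4.78), Actg2 (13.7 ± 3.70), Mylk (12.2 ± 0.250), Des (6.58 ± 1.38), Myh11 (5.91 ± 1.51), Cnn1 (3.45 ± 1.43), Lmod1 (1.86 ± 0.494), Cspg4 (0.696 ± 0.124) and Tagln (0.162 ± 0.0664). Rgs5 lay clear of Actg2 in hyperoxia, whereas in room air the library ranges of Rgs5, Actg2 and Mylk ran into each other. Des, Myh11 and Cnn1 were neighbours whose ranges overlapped in either group. Actg2 and Mylk, and Cnn1 and Lmod1, overlapped in hyperoxia too.

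**Figure D4:**
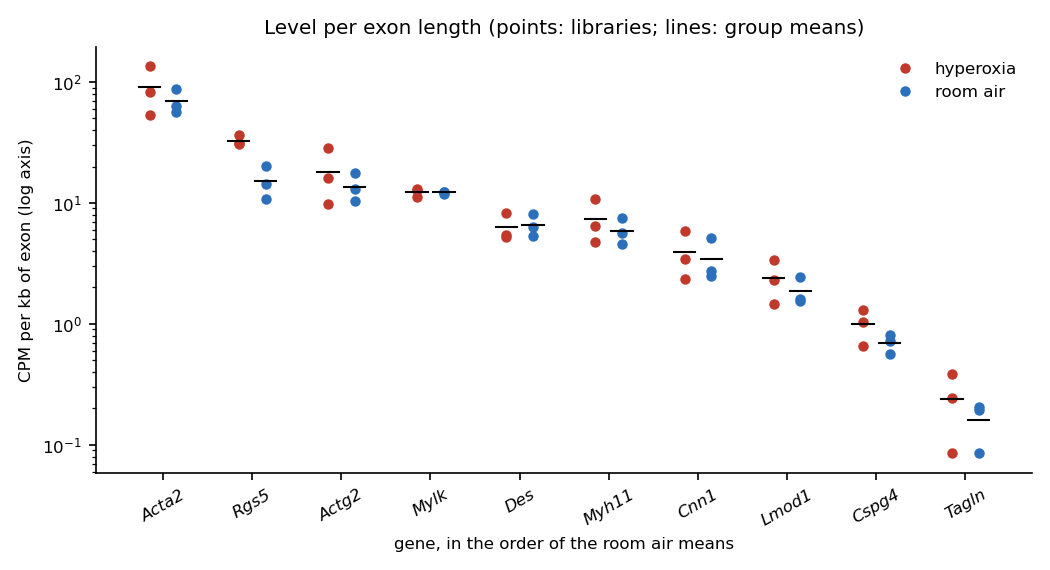
CPM per kilobase of exon on a log axis for the 10 genes in the order of their room air means, hyperoxia (red) left of room air (blue); points are libraries and lines group means. Acta2 is highest and Tagln lowest in either group, and Rgs5 stands apart from Actg2 in hyperoxia but not in room air.

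Of 24 other contractile genes tested, 3 rose, 0 fell and 21 did not pass by edgeR (median log2 fold change 0.14), a share called near the 11.2% of all genes. At an unadjusted p below 0.05 there were 5 higher and 2 lower by edgeR, beside 2305 and 1993 of all 17072 genes. By adjusted p, DESeq2 called 4 higher and 1 lower, and limma-voom 3 and 0. Pdlim3, which encodes an actinin-binding protein of the actin cytoskeleton, was at 89.1, 85.8 and 72.9 CPM in hyperoxia and at 56.4, 49.9 and 46.4 CPM in room air. The groups did not overlap (log2 fold change 0.70, SE 0.12, adjusted p = 0.00413 by edgeR), and the call held without each library in turn. Tpm1, a tropomyosin that lies along actin filaments in many cell types, was at 279, 360.1 and 302 CPM in hyperoxia and at 186, 189.8 and 229 CPM in room air. It rose as well (log2 fold change 0.64, SE 0.14, adjusted p = 0.0131 by edgeR), but not without room air 1 (adjusted p = 0.0585) or room air 2 (0.0602). Mustn1, a small nuclear protein gene of the musculoskeletal system, was at 26.8, 25.5 and 23.9 CPM in hyperoxia and at 18.0, 17.9 and 18.0 CPM in room air (log2 fold change 0.50, SE 0.12, adjusted p = 0.0253 by edgeR). Its call was lost when any 1 library was left out (adjusted p of 0.0533 to 0.0984). With room air 1 or room air 2 left out, 1 of the 24 genes rose. The light chain gene Myl9 was at 33.9, 54.4 and 42.1 CPM in hyperoxia and at 47.2, 33.5 and 54.1 CPM in room air, and Tpm2, the tropomyosin of smooth muscle, at 10.4, 31.7 and 15.5 CPM and 11.4, 11.2 and 21.5 CPM. Neither passed. Either gene had hyperoxia 2 and room air 3 as the highest libraries, which held for 7 of the 24 genes (29.2%), beside 19.7% of all genes tested, and both were picked after their values were seen.

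Of 16 genes that regulate contractile genes, 1 rose, 1 fell and 14 did not pass by edgeR (median log2 fold change 0.09), again near the 11.2% called among all genes. Klf5, a Kruppel-like factor of smooth muscle and epithelium, was at 33.1, 62.5 and 39.8 CPM in hyperoxia and at 17.3, 21.8 and 25.7 CPM in room air (log2 fold change 1.06, SE 0.23, adjusted p = 0.0128 by edgeR). With room air 1 left out the adjusted p was 0.0558, and with room air 2 left out 0.0556, so neither fit called it. Alveolar type 1 markers were higher in the same libraries, and their part in the rise of Klf5 was not tested. Foxf1, a forkhead factor of lung mesenchyme and capillary endothelium, was at 782, 709.9 and 807 CPM in hyperoxia and at 1464, 1329 and 1033 CPM in room air. It fell (log2 fold change -0.73, SE 0.16, adjusted p = 0.0127 by edgeR), but leaving out room air 2 ended the call (adjusted p = 0.0502). Myocd, the gene for myocardin, stood at 1.67 to 2.10 CPM in hyperoxia and 0.992 to 2.15 CPM in room air. Srf averaged 75.8 ± 0.787 CPM in hyperoxia and 87.2 ± 11.4 CPM in room air, and neither gene passed (adjusted p = 0.811 and 0.305 by edgeR).

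**Figure D5:**
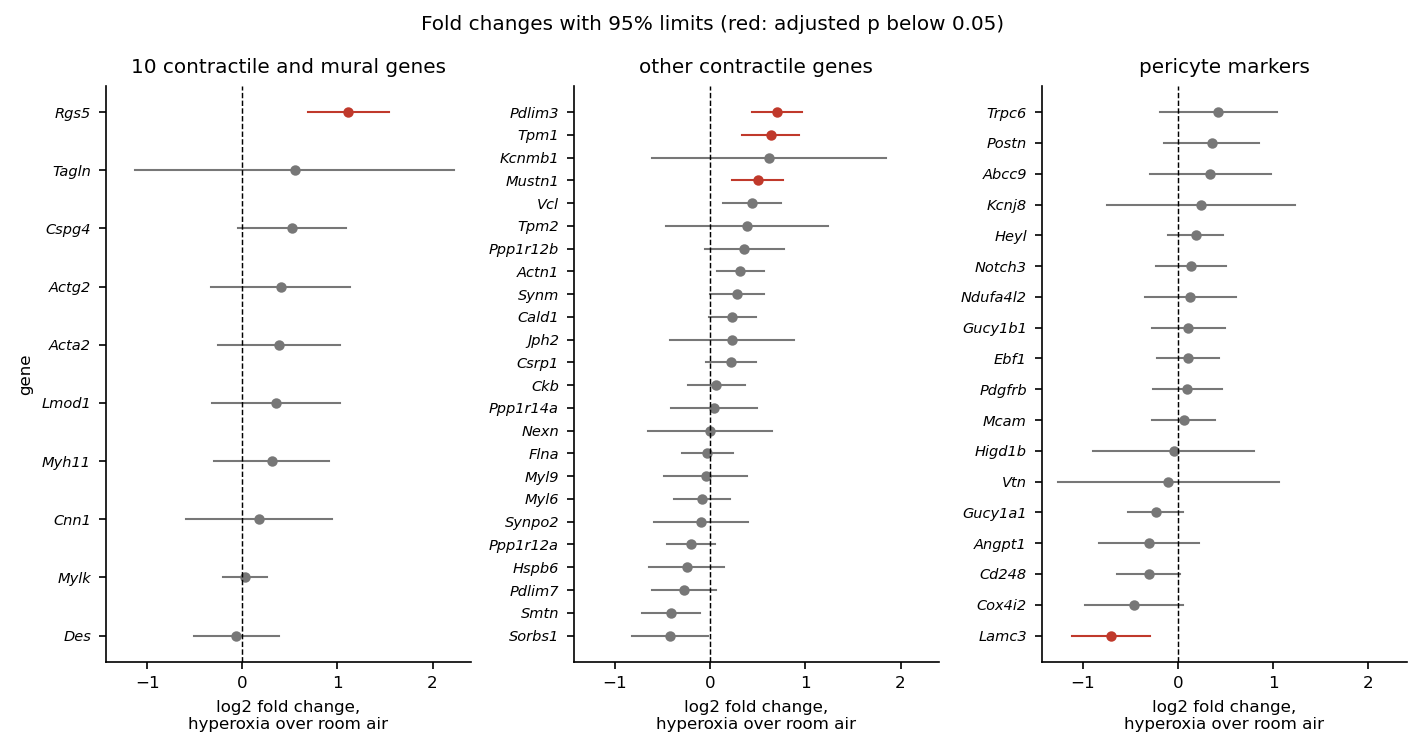
Log2 fold changes, hyperoxia over room air, of the 10 genes, the 24 other contractile genes and the 18 pericyte markers, with 95% limits as lines; red marks an adjusted p below 0.05 by edgeR. Rgs5 is the red point of the left panel, Pdlim3, Tpm1 and Mustn1 are red on the right side of 0 in the middle panel, and Lamc3 is red on the left side of 0 in the right panel.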

How the data were processed

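RNA of CD31-selected lung cells was sequenced in 3 hyperoxia and 3 room air libraries. The authors deposited 1 table of raw read counts per gene; the build GRCm39 and the tools DESeq2, featureCounts, HISAT2 2.2.1 and Subread 2.0.6 appear in the submitters' processing notes, with no role or order. The sources used here give neither annotation nor strand setting. Gene symbols came from a table of IDs (51948 of 56941 matched), and exon lengths, overlaps and sequences from GENCODE M21 and RefSeq GRCm38.p6, another build, so no coordinate of the counted genes is given.

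Genes were kept by filterByExpr (minimum count 10, total 15), scaled by TMM and tested with edgeR 4.0.16 (robust quasi-likelihood, hyperoxia against room air). P-values were adjusted by Benjamini-Hochberg over all 17072 genes, and genes were called at an adjusted p below 0.05. SEs were the log2 fold change divided by the square root of F. DESeq2 1.42.0, limma-voom 3.58.1, other scalings, filters, thresholds, a replicate block and leaving out each library were alternatives. The fits without hyperoxia 2 and room air 3 and with Y-linked read status were chosen after seeing the data. The genes and lists were chosen with earlier results of these data known. Named in the text were the 10 genes, up to 4 called genes of each related list, and the 5 nearest profiles. The other genes named, and the ratios, were chosen after their values were seen. The test was checked on simulated counts. No libraries were duplicates of each other.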

Additional observations from a re-analysis of the deposited data

How the results depend on the processing

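Of 169 alternative values of the 10 genes, 151 kept direction and call, 14 changed sign, 3 became calls and 1 lost its call. Genes of the 10 that rose numbered 0 without hyperoxia 2 and room air 3, and 4 with the Y-linked term (Rgs5, Acta2, Myh11 and Actg2); without each single library the number was 1. With the Y-linked term hyperoxia 2, the highest library for these 4 genes, is the only one that sets hyperoxia against room air, so its values describe an arm of 1 library, assumed to vary like the others. Leaving out 1 library gave log2 fold changes of -0.025 to 0.65 for Acta2, -0.074 to 0.54 for Myh11, -0.25 to 0.57 for Cnn1 and -0.079 to 0.70 for Actg2. The ranges were -0.29 to 0.11 for Des and -0.032 to 0.091 for Mylk. Des was 0.23 under pan-endothelial scaling and 0.32 with the Y-linked term, and Mylk was -0.00051 under upper quartile scaling and -0.11 with the Y-linked term. Of the other contractile genes, 6 rose under pan-endothelial scaling and 1 at an adjusted p below 0.01, and 2 fell with no filter, 1 by DESeq2, 1 with the Y-linked term and 1 at an adjusted p below 0.1. Without single libraries 1 to 2 rose and 0 to 1 fell. Of the regulators, 2 fell with no filter, by DESeq2 and without hyperoxia 2 and room air 3, and 0 rose and 0 fell at an adjusted p below 0.01; without single libraries 0 to 1 rose and 0 to 2 fell. Of the pericyte markers, 1 rose with the Y-linked term, and 0 fell under pan-endothelial scaling, with the replicate block and at an adjusted p below 0.01; without single libraries 0 to 1 fell. Causes were not tested.

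Over all genes, 1156 rose and 753 fell. Pan-endothelial scaling gave 1201 higher and 135 lower and moved the median log2 fold change of all genes to 0.26, with the 10 genes at 0.67. Lower genes numbered 1243 with no filter, 1243 by DESeq2, 1223 with the Y-linked term, 1235 at an adjusted p below 0.1 and 233 below 0.01, where 556 were higher. Without single libraries 681 to 1095 rose and 376 to 749 fell. With hyperoxia 2 and room air 3 left out together, where 0 of the 10 genes rose, 986 of all genes rose and 712 fell. Deviations from the group means correlated at 0.112, -0.0389 and -0.0899 between libraries of equal number. Such values cannot settle whether the numbers pair the samples, and the labels do not say so. With the replicate block 881 rose and 514 fell, Rgs5 was called (log2 fold change 1.16, adjusted p = 0.011 by edgeR), and Mustn1 (adjusted p = 0.0618) and Lamc3 (adjusted p = 0.0700) were not. Depth limits Tagln, whose 7 to 31 counts leave a fold of 0.459 to 4.69 within the 95% limits.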

Other observations

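The summed level of 6 mesothelial markers was 228, 325 and 266 CPM in hyperoxia 1, 2 and 3, and 109, 91.8 and 116 CPM in room air 1, 2 and 3. Of these markers 2 were called higher and 0 lower by edgeR, Msln at 137 ± 25.6 CPM in hyperoxia and 40.6 ± 2.36 CPM in room air, and Krt19 at 125 ± 23.3 and 45.2 ± 10.5 CPM (SD, n = 3 each). The other 4 markers were not called, and the higher sum came mainly from Msln and Krt19. In the same libraries 9 of 9 alveolar type 1 markers were called higher, and their part in these 2 calls was not tested. Upk3b was at 7.02 ± 0.982 CPM in hyperoxia and 13.6 ± 8.29 CPM in room air, Lrrn4 at 0.921 ± 0.702 and 2.92 ± 1.45 CPM, Upk1b at 2.29 ± 0.416 and 2.75 ± 0.869 CPM, and Wt1 at 0.505 ± 0.476 and 0.490 ± 0.225 CPM. The median log2 fold change of the 6 was -0.11. Their part in the levels of the contractile genes was not tested. Of 12 myofibroblast markers 2 rose and 0 fell by edgeR, with a median log2 fold change of 0.03. Over all genes tested 6.77% were called higher. The 2 were Fgf18 (log2 fold change 1.27, adjusted p = 0.00238 by edgeR) and Mustn1, already counted among the other contractile genes. Des relative to Acta2 was 16.9%, 10.4% and 11.4% in hyperoxia 1, 2 and 3, and 17.1%, 16.3% and 15.7% in room air 1, 2 and 3.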
